A study of Mus musculus with 9 samples.

Results

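Solute carriers are the membrane proteins that bring amino acids, sugars, ions, metals, vitamins and hormones into and out of cells and organelles. The genes were chosen by symbol alone, as those named Slc with a family and member number or Slco with a number, and 35 of the 2810 genes listed in at least 1 of the 3 comparisons of endothelial progenitor cells (EPCs) carried such a symbol. The mouse annotation (GENCODE M21) held 365 symbols of this form. A gene entered a table only where the authors' own screen, at a fold change of at least 2 and a false discovery rate of 0.05, had already called it in these libraries, so the lists were selected for difference and genes outside them were not used here.

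The EPCs were bone marrow cells of C57BL/6J mice, depleted of lineage-positive cells, magnetically sorted as Sca-1+/CD31+ and grown in an endothelial medium (EGM-2, low in phenol red and without estrogen) on gelatin. M-EPCs came from male mice, F-EPCs from female mice with ovaries and OVX-EPCs from ovariectomized female mice; all mice were 8 weeks old, and ovaries were removed at about 35 days of age. There were 3 RNA-seq libraries in each group, 9 in all, and the design asks which sex differences of EPCs do not depend on estrogen. The labels call the cells freshly isolated and also name the culture medium. The study's methods speak of biological replicates, but neither source ties a library to its own mouse or culture, so p-values measure the spread between these libraries, part of which may be technical.

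Most solute carriers let a substrate through by changing shape, either down its own gradient or coupled to sodium, protons or a second substrate moving the other way. Amino acid carriers of families 1, 7 and 38 set how much glutamine, leucine, arginine and cystine a cell can use, family 2 carries glucose, family 25 lies in the inner mitochondrial membrane, and Slc40a1 (ferroportin) is the iron exporter of macrophages and other cells. Several amino acid carrier genes are known targets of ATF4, the transcription factor that cells raise when amino acids are short or protein folding is under stress.

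Between M-EPCs and F-EPCs, 26 of 2093 listed genes were solute carriers (1.24%), with 18 of 1317 (1.37%) between M-EPCs and OVX-EPCs and 11 of 811 (1.36%) for F-EPCs against OVX-EPCs. Every solute carrier listed, in all 3 comparisons, passed the test used here (limma on log2 of normalized count plus 1, Benjamini-Hochberg adjusted p under 0.05, log2 fold change of 1 or more in either direction), as did 97.6%, 98.8% and 98.2% of all listed genes, so the calls themselves only restate the listing. Compared with F-EPCs, M-EPCs had 10 members higher and 16 lower (background 48.4% higher and 49.3% lower). Compared with OVX-EPCs, 6 were higher and 12 lower in M-EPCs (background 40.8% and 58%). F-EPCs had 5 members higher and 6 lower than OVX-EPCs (background 30.8% and 67.3%). No member's libraries overlapped between the groups of its own comparison, which was also true of 98.3%, 99.2% and 98.9% of all listed genes. The exact two-sided permutation test of 3 libraries against 3 cannot go below p = 0.1, and each member was at that limit.

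The median log2 fold change of the members was -1.27 for M-EPC minus F-EPC, -1.73 for M-EPC minus OVX-EPC and -1.03 for F-EPC minus OVX-EPC, beside -0.99, -1.26 and -1.31 over all listed genes. Scalings that assume most genes unchanged, when computed on these lists of changed genes, move that zero. The trimmed mean of M-values (TMM) shifted the median of all listed genes by 0.07, 0.20 and 1.14 in the 3 comparisons, and the DESeq2 size factors by -0.37, 0.63 and 1.13. Under DESeq2 scaling the members split 5 higher and 16 lower in M-EPCs against F-EPCs and 6 higher and 9 lower against OVX-EPCs. Between F-EPCs and OVX-EPCs the split became 5 higher and 3 lower with TMM and 5 higher and 2 lower with DESeq2. Of all calls in that comparison, 31.4% were higher in F-EPCs with the authors' scaling, 63.1% with TMM and 67.1% with DESeq2. The corresponding DESeq2 shares were 37.2% against 49.5% for M-EPCs over F-EPCs and 52.6% against 41.3% for M-EPCs over OVX-EPCs. The values below use the authors' scaling.

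**Figure D1:**
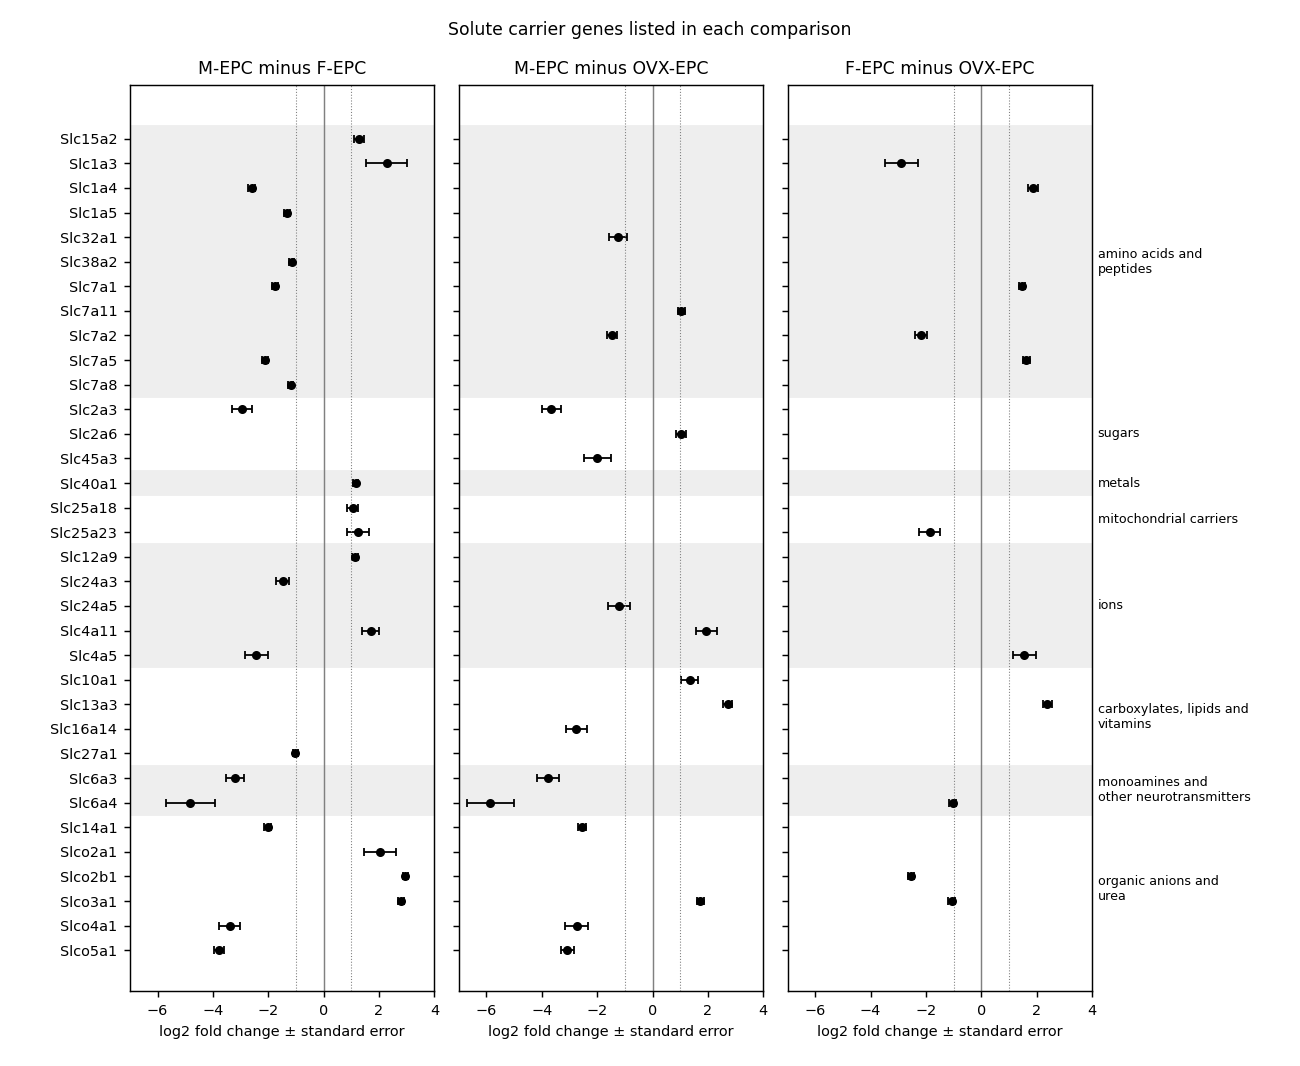
Log2 fold changes (x axis, log2 of normalized count plus 1, difference of group means) with limma standard errors for 34 of the 35 solute carrier genes (y axis, grouped by substrate class with alternate shading) in each of the 3 comparisons, with dotted lines at -1 and 1. A gene with no point was not listed in that comparison; 25, 17 and 11 genes have a point, and 15, 11 and 6 of these lie below 0.

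Markers of other cell types moved with these groups. All 8 mast cell or basophil markers were lower in M-EPCs than in either female group, their summed normalized count being 33.5 to 60.2 in M-EPCs and 592 to 621 in F-EPCs, and 34.2 to 61.5 beside 868 to 1039 in OVX-EPCs on the scale of that comparison; Mcpt8 had 0 reads in M-EPCs. All 6 megakaryocyte or platelet markers were lower in M-EPCs as well, at 1391 to 1490 against 10262 to 10674 in F-EPCs, and at 1420 to 1525 against 13020 to 13933 in OVX-EPCs. Of 10 endothelial markers, Pecam1, which encodes the CD31 used in the sort, was higher in M-EPCs relative to F-EPCs while Kdr, Vwf, Tie1 and Esam were lower in M-EPCs than in either female group; Cdh5, Tek, Emcn, Eng and Egfl7 were listed in no table. The 5 neutrophil markers listed for M-EPCs against F-EPCs were lower in M-EPCs, and 4 of the 5 listed for F-EPCs against OVX-EPCs were higher in F-EPCs, with sums of 575 to 631 and 139 to 163. Of the dendritic or B cell list, 2 were higher and 4 lower in M-EPCs relative to F-EPCs. The 2 were Cd74 and H2-Aa, genes of antigen presentation, which averaged 78118 and 31899 in M-EPCs and 2697 and 834 in F-EPCs, and F-EPCs were below OVX-EPCs in both (-2.42 and -2.62). Markers of fibroblasts or smooth muscle were lower in F-EPCs than OVX-EPCs for 4 of 8. In bulk RNA, fewer cells of a type and less RNA per cell cannot be told apart, and the part of these cell types in the differences below was not tested.

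Amino acid carriers were the largest class, and F-EPCs stood above M-EPCs in 6 of the 8 listed. Slc1a4 (ASCT1) is a sodium-dependent exchanger of alanine, serine and cysteine. Its gene lies at chr11:20302180-20332713 on the minus strand (GRCm38). Slc1a4 read 36.2, 31.4 and 38.3 normalized counts in M-EPCs and 238, 206 and 215 in F-EPCs. The F-EPC libraries were all several fold above the M-EPC libraries, and the log2 fold change was -2.61 ± 0.12 (SE, adjusted p = 4.37e-05). Slc7a5 (LAT1, at chr8:121881150-121907694) imports leucine and other large neutral amino acids in exchange for glutamine. It read 273, 283 and 246 in M-EPCs and 1098, 1208 and 1210.4 in F-EPCs, with a log2 fold change of -2.13 ± 0.10 (adjusted p = 4.91e-05). Slc7a1 (CAT1, at chr5:148327410-148399904), the widely expressed importer of arginine and lysine, read 969, 1107 and 1162 in M-EPCs and 3707, 3613 and 3662 in F-EPCs. For Slc7a1 the log2 fold change was -1.77 ± 0.11 (adjusted p = 7.85e-05), and the 3 F-EPC libraries lay within a narrow band.

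The remaining carriers lower in M-EPCs than in F-EPCs were abundant and differed by less. Slc1a5 (ASCT2), a glutamine exchanger, had a mean of 417 ± 33.1 in M-EPCs (SD, n = 3) and of 1055 ± 41.7 in F-EPCs (log2 fold change -1.34). Slc38a2 (SNAT2), which takes up small neutral amino acids with sodium, averaged 1967 ± 33.4 and 4378 ± 243 (-1.15). Slc7a8 (LAT2), a second exchanger of large neutral amino acids, averaged 2839.7 ± 136 and 6522 ± 358 (-1.20). These groups were separated by far more than the spread within them.

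A pair of genes in the class went the other way. Slc15a2 (PEPT2), a proton-coupled importer of short peptides, read 166, 140.1 and 161 in M-EPCs and 77.8, 53.3 and 62.6 in F-EPCs (log2 fold change 1.27 ± 0.17, adjusted p = 9.64e-04, and 0.92 with DESeq2 scaling). Slc1a3 (GLAST), a glutamate transporter best known in astrocytes, read 13.3, 18.9 and 4.78 in M-EPCs and 2.02, 3.87 and 0 in F-EPCs. The lowest M-EPC library lay just above the highest F-EPC library. The log2 fold change of 2.27 ± 0.75 (adjusted p = 0.0276) rests on few reads: leaving out M-EPC library 1, M-EPC library 2, F-EPC library 1 or F-EPC library 3 moved the adjusted p to between 0.0561 and 0.0826, and without F-EPC library 3 the log2 fold change was 1.62. With a pseudocount of 0.1 the log2 fold change of Slc1a3 rose to 3.51, with an adjusted p of 0.0721.

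F-EPCs also stood above OVX-EPCs in Slc1a4, Slc7a5 and Slc7a1. Slc1a4 read 247, 214 and 223 in F-EPCs and 53.9, 77.5 and 55 in OVX-EPCs (log2 fold change 1.88 ± 0.18, adjusted p = 3.62e-04). Slc7a5 averaged 1215 ± 66.4 and 393 ± 40.6 (1.63 ± 0.13, adjusted p = 2.57e-04), and Slc7a1 averaged 3797 ± 51 and 1363 ± 14.7 (1.48 ± 0.10, adjusted p = 1.79e-04). OVX-EPC libraries were thus all far below F-EPC libraries in these 3 genes, and all 3 stayed higher in F-EPCs under TMM and DESeq2 scaling.

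OVX-EPCs exceeded F-EPCs in Slc1a3 and Slc7a2. Slc1a3 read 2.10, 4.01 and 0 in F-EPCs and 17.6, 19.1 and 15.7 in OVX-EPCs, with a log2 fold change of -2.89 ± 0.60 (adjusted p = 0.00493) that became -2.23 without F-EPC library 3. Slc7a2 (CAT2, at chr8:40862396-40922308), the arginine transporter of activated macrophages and of liver, read 91.1, 146 and 94.4 in F-EPCs and 463, 536 and 469 in OVX-EPCs (log2 fold change -2.17 ± 0.22, adjusted p = 4.07e-04). M-EPCs were also below OVX-EPCs in Slc7a2, at 214, 173 and 142 against 455, 528 and 461 (-1.46 ± 0.19, adjusted p = 8.10e-04), so OVX-EPCs were the high group for CAT2 while F-EPCs were the high group for CAT1. With DESeq2 scaling the Slc7a2 difference between M-EPCs and OVX-EPCs was -0.82, and the Slc1a3 difference between F-EPCs and OVX-EPCs had an adjusted p of 0.0690.

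The other amino acid carriers listed between M-EPCs and OVX-EPCs were Slc7a11 and Slc32a1. Slc7a11 (xCT), the cystine and glutamate exchanger that feeds glutathione synthesis, read 1163, 1267 and 1244 in M-EPCs and 539, 657 and 588 in OVX-EPCs. All M-EPC libraries were higher, with a log2 fold change of 1.04 ± 0.14 (adjusted p = 8.12e-04) that fell to 0.98 without OVX-EPC library 1. Slc32a1, the vesicular GABA and glycine transporter of neurons, was low throughout, at 12.7, 12.9 and 12.2 in M-EPCs and 18.3, 40.6 and 39.6 in OVX-EPCs (-1.23 ± 0.33, adjusted p = 0.0113). An antisense gene, Gm14205, covers 697 bases of its exons on the other strand. With DESeq2 scaling its adjusted p was 0.174.

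Promoter letters are shown for Slc7a11 and Slc1a4, amino acid carriers among the 3 of 25 members with a promoter window that held the ATF4/CHOP composite element core, TGATGNAA. It was read on both strands. This was 12%, beside 4.51% of 27025 gene symbols with windows of the same 300-base length. A symbol with more than 1 window counted once if any window held the match. The 250 bases before the start of Slc7a11, at chr3:50443614-50443863 on the minus strand, and 30 bases around the start of Slc1a4, at chr11:20332708-20332737 on the minus strand, are from RefSeq (GRCm38.p6), with matches in capitals:
Slc7a11: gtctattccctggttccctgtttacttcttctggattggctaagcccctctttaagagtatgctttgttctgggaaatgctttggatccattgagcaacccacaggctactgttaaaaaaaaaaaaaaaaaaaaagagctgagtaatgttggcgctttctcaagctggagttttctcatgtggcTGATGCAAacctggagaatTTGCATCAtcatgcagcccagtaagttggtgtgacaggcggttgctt
Slc1a4: cctccagcgtgcctcctgcgTTGCATCAtc
Slc7a11 held 2 matches facing each other, beginning 66 and 47 bases before the start, and the Slc1a4 match began 4 bases before the start and ran across it. The third member was Slco2a1, whose RefSeq start lies inside the longer GENCODE gene. The M-EPC minus F-EPC log2 fold change was -2.61 for Slc1a4 but 2.04 for Slco2a1. Slc7a11 was listed only between M-EPCs and OVX-EPCs, with M-EPCs higher (1.04). Of the other amino acid carriers raised in F-EPCs over M-EPCs, Slc7a1, Slc38a2 and Slc7a8 had a window without this core. Slc7a5 and Slc1a5 had no window. Whether the core has a part in these differences was not tested. The full palindromic estrogen response element was in 0 of 25 members with a window and in 0.074% of all symbols. The antioxidant response element core TGACNNNGC was in 5 (20%, beside 14%), the metal response element core TGCNCNC in 15 (60%, beside 53.6%) and the interferon-stimulated response element core in 0 (beside 3.99%). These are matches of letters and not sites of binding.

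Genes of amino acid supply that are not carriers were read from a list of 43 enzymes, stress factors and their targets. Between M-EPCs and F-EPCs, 14 of the 43 were listed, 4 higher and 10 lower in M-EPCs. The largest fitted difference was in Chac1, a glutathione-degrading enzyme and ATF4 target, at 15.1 ± 5.85 in M-EPCs and 297 ± 28.1 in F-EPCs (log2 fold change -4.28 ± 0.32, adjusted p = 1.48e-04). Asns, Phgdh, Psat1, Shmt2, Trib3, Atf4 and Ddit3, named after their values were seen, were lower too. Asparagine synthetase (Asns) averaged 320 ± 22.2 and 2227 ± 90.5 (-2.80), the serine synthesis enzyme Phgdh 152 ± 28.8 and 1629.7 ± 74.1 (-3.43) and Atf4 itself 2203 ± 41 and 6085 ± 332 (-1.46). Between F-EPCs and OVX-EPCs 7 of the 43 were listed, 6 of them higher in F-EPCs, with Chac1 again the most changed (2.76 ± 0.14, adjusted p = 1.03e-04). Between M-EPCs and OVX-EPCs 8 were listed, 3 higher and 5 lower in M-EPCs, led by Nos2, the arginine-using nitric oxide synthase of activated macrophages (2.51 ± 0.30, adjusted p = 5.55e-04).

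**Figure D2:**
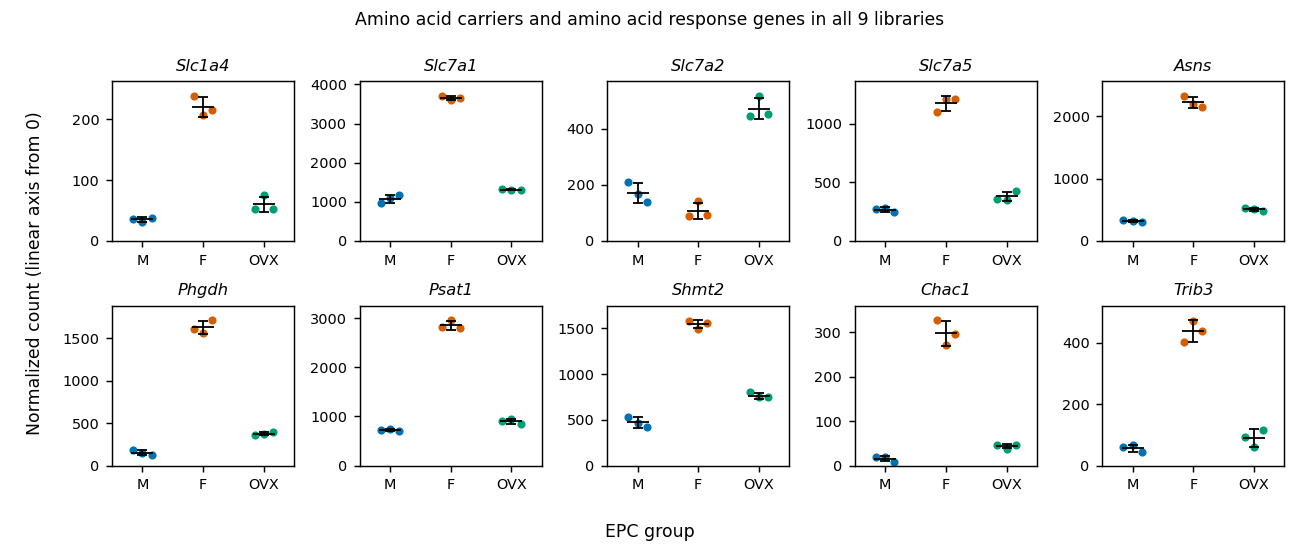
Normalized counts (y axis, linear from 0) of 4 amino acid carriers and 6 genes of amino acid synthesis and stress in each library, by EPC group on the x axis, all on the common 9-library scale. Points are libraries and bars are the mean ± SD of 3. F-EPCs are the highest group in every panel but Slc7a2, in which OVX-EPCs are at 446 to 517 and the other libraries at 87.9 to 209. The genes drawn were chosen with their values known. Nos2, Ass1 and Kynu, from the same list as the 6 and not drawn, were highest in M-EPCs and lowest in F-EPCs on this scale. Their means were 76.6, 303 and 89.2 in M-EPCs and 10.5, 130 and 13.3 in F-EPCs.

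Glucose carriers were few, but 1 of them differed strongly. Slc2a3 (GLUT3, at chr6:122727809-122801640), a glucose transporter with high affinity known from neurons, platelets and leukocytes, read 40.9, 33.2 and 82.5 in M-EPCs and 348, 446 and 352 in F-EPCs. Every F-EPC library was several times the highest M-EPC library, and the log2 fold change was -2.95 ± 0.36 (adjusted p = 6.97e-04). Against OVX-EPCs, at 683, 564 and 665, it was -3.66 ± 0.35 (adjusted p = 2.94e-04). The platelet marker sums given above were lower in M-EPCs in the same comparisons, and their part in this difference was not tested. Slc2a6, a hexose carrier of lysosomes in macrophages, was higher in M-EPCs than in OVX-EPCs, at 347, 321 and 376 against 188, 134 and 191 (1.04 ± 0.19, adjusted p = 0.00274). This log2 fold change was 0.98 without M-EPC library 3 and 0.87 without OVX-EPC library 2. Slc45a3, a carrier of a family thought to move sugars, read 2.92, 3.67 and 2.44 in M-EPCs and 18.3, 6.60 and 26 in OVX-EPCs (-1.99 ± 0.48, adjusted p = 0.00831). The M-EPC libraries held only 3, 4 and 2 reads of Slc45a3, so the size of this difference rests on few reads. Its exons share 481 bases with Gm29103 on the same strand. From a list of 40 genes of glycolysis and glucose use, 2, 2 and 0 were listed in the 3 comparisons, with Txnip (1.34) and Aldoc (-1.28) the most changed between M-EPCs and F-EPCs and between M-EPCs and OVX-EPCs.

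The only metal carrier listed was Slc40a1 (ferroportin, at chr1:45908068-45926523), which exports iron. It read 32928, 34453 and 34135 normalized counts in M-EPCs and 15156, 14784 and 15856 in F-EPCs. The groups were far apart, with a log2 fold change of 1.15 ± 0.09 (adjusted p = 1.49e-04). Per kilobase of exon, Slc40a1 had the highest level of the 26 solute carriers of that comparison in both groups, at 3760 in M-EPCs and 1696 in F-EPCs, followed by Slc7a8 at 567 and 1303. DESeq2 scaling gave 0.80, below the fold threshold. Of 10 macrophage or monocyte markers, 3 were listed in the comparison of M-EPCs against F-EPCs, and they did not move together. C1qa averaged 20234 and 8805 in these groups and made up nearly all of the list's sum, whereas Ly6c2 averaged 7.25 and 153 and Ccr2 90.3 and 225. Adgre1, Csf1r and Cd68 were listed in no table, and the part of such cells in the Slc40a1 difference was not tested. Among 40 genes of iron and metal handling, 6 were listed between M-EPCs and F-EPCs, 2 higher and 4 lower in M-EPCs. Lactoferrin (Ltf), a secreted iron-binding protein of neutrophils, was the most changed at 10.6 ± 8.11 against 106 ± 23.9 (-3.65 ± 0.85, adjusted p = 0.00823). The transferrin receptor Tfrc, the main route of iron into cells and named after its values were seen, averaged 11498 ± 154 in M-EPCs and 35516 ± 2011 in F-EPCs (-1.63 ± 0.09, adjusted p = 6.68e-05), so the iron importer and the iron exporter differed in opposite directions. In the other comparisons 3 and 4 of the 40 were listed, and the largest fitted differences were in Tfr2 and Ltf (4.21). Tfr2 had 1, 0 and 0 reads in M-EPCs and 11, 9 and 5 in OVX-EPCs. Its rank depends on the pseudocount, and the size of its difference is not given. Of the 5 neutrophil markers listed, Ltf among them, all were lower in M-EPCs than in F-EPCs.

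Of the mitochondrial carriers, Slc25a18, a glutamate carrier, averaged 221 ± 21.6 in M-EPCs and 108 ± 23.4 in F-EPCs (log2 fold change 1.04 ± 0.19, adjusted p = 0.00335). It was 0.96 without M-EPC library 3, 0.87 without F-EPC library 3 and 0.67 with DESeq2 scaling. Slc25a23, a calcium-regulated carrier of ATP-magnesium and phosphate, read 80.9, 67.4 and 55 in M-EPCs and 43.4, 32 and 15.2 in F-EPCs. F-EPC library 3 was the lowest, and the log2 fold change of 1.24 ± 0.41 (adjusted p = 0.0268) became 0.83 without it. Leaving out M-EPC library 1, M-EPC library 2 or F-EPC library 2 moved the adjusted p of Slc25a23 to between 0.0502 and 0.0786, and with DESeq2 scaling the log2 fold change was 0.82. OVX-EPCs, at 117, 100.5 and 106, were above F-EPCs, at 45, 33.1 and 15.7, by a log2 fold change of -1.87 ± 0.38 for F-EPC minus OVX-EPC (adjusted p = 0.00485). That difference was -0.66 with TMM and -0.67 with DESeq2 scaling, with adjusted p = 0.0947 and 0.0923.

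Among ion carriers, Slc12a9, a member of the cation and chloride cotransporter family, had the highest level per kilobase of exon among the 4 listed for M-EPCs against F-EPCs. Slc12a9 read 1861, 1689 and 1665 in M-EPCs and 727, 788 and 843 in F-EPCs (log2 fold change 1.15 ± 0.11, adjusted p = 2.56e-04, and 0.79 with DESeq2 scaling). Slc4a11, a proton-conducting member of the bicarbonate family known from the cornea, was higher in M-EPCs than in either female group. It read 25.7, 28.7 and 32.3 in M-EPCs and 6.06, 6.78 and 13.3 in F-EPCs (1.69 ± 0.30, adjusted p = 0.00278). Against OVX-EPCs, at 3.85, 12.3 and 6.75, the log2 fold change was 1.94 ± 0.38 (adjusted p = 0.00353). Slc4a5, a sodium and bicarbonate cotransporter, was higher in F-EPCs than in both other groups. Slc4a5 read 7.61, 10.8 and 4.78 in M-EPCs and 61.6, 27.1 and 51.2 in F-EPCs (-2.43 ± 0.40, adjusted p = 0.00226). On the scale of the other table it read 63.9, 28.1 and 53.1 in F-EPCs and 12.7, 23.9 and 10.8 in OVX-EPCs (1.55 ± 0.42, adjusted p = 0.0131).

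The exchangers of sodium and potassium against calcium were lower in M-EPCs. Slc24a3 averaged 50.1 ± 12.7 in M-EPCs and 140.2 ± 20.4 in F-EPCs (log2 fold change -1.49 ± 0.23, adjusted p = 0.00169). Slc24a5, known for its part in pigment cells, read 41.9, 68.0 and 24.4 in M-EPCs and 91.5, 125 and 82.0 in OVX-EPCs. The nearest libraries of the groups were close, and the log2 fold change was -1.23 ± 0.40 (adjusted p = 0.0234). It was -0.86 without M-EPC library 3, and the adjusted p lay between 0.0538 and 0.0785 without M-EPC library 1, OVX-EPC library 1 or OVX-EPC library 2. TMM gave -0.92 and DESeq2 -0.50. Its exons share 921 bases with Myef2 on the other strand. Of 44 ion pumps and channels, 8 were listed between M-EPCs and F-EPCs (2 higher, 6 lower in male cells). There were 10 for M-EPCs against OVX-EPCs (all lower, background 58%) and 5 for F-EPCs against OVX-EPCs (1 higher and 4 lower in F-EPCs, background 67.3% lower). Trpc6, a calcium-permeable channel of platelets and smooth muscle, had the largest fitted difference in both M-EPC comparisons (-5.66 and -6.15). The M-EPC libraries held only 2, 1 and 2 reads of Trpc6, so this size and rank depend on the pseudocount. Kcnj10, a potassium channel, was the most changed between F-EPCs and OVX-EPCs (-2.40).

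In the class of carboxylates, lipids and vitamins, OVX-EPCs stood apart from both other groups in Slc13a3. This gene (NaDC3, at chr2:165405028-165473230) encodes a carrier that takes up succinate and other dicarboxylates with sodium. Slc13a3 read 459, 476 and 441 in M-EPCs and 78.0, 70.7 and 58.8 in OVX-EPCs (log2 fold change 2.72 ± 0.15, adjusted p = 7.06e-05). F-EPCs, at 384, 404 and 329, were also above OVX-EPCs, at 79.4, 71.8 and 59.9, by 2.39 ± 0.16 (adjusted p = 1.79e-04). No OVX-EPC library came near a library of either other group. Slc10a1 (NTCP), the bile acid importer of liver, averaged 78.6 ± 14.8 in M-EPCs and 31.2 ± 10.6 in OVX-EPCs (1.35 ± 0.31, adjusted p = 0.00665). Slc27a1 (FATP1), a fatty acid transport protein, averaged 1909.6 ± 80.9 in M-EPCs and 3898 ± 212 in F-EPCs (-1.03 ± 0.09, adjusted p = 2.51e-04). It was at the fold threshold, with -0.99 without M-EPC library 2, -0.98 without F-EPC library 3 and -0.94 with TMM. From 27 genes of lipid uptake, 8 were listed between M-EPCs and F-EPCs (2 higher and 6 lower in M-EPCs), led by the scavenger receptor Marco (2.01). There were 6 between M-EPCs and OVX-EPCs (1 higher and 4 lower passing the test), led by the oxidized lipoprotein receptor Olr1 (-2.59), and 0 between F-EPCs and OVX-EPCs. The M-EPC libraries held only 2, 1 and 2 reads of Olr1, so its size and rank depend on the pseudocount.

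Slc16a14, an orphan relative of the monocarboxylate transporters, had 1 read in M-EPCs and 25 in OVX-EPCs. The ratio of its rates was 23.4, with an exact 95% interval of 3.83 to 961 that covers counting error only, so the size of this difference rests on few reads.

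Both monoamine carriers were lower in M-EPCs than in either female group. Slc6a4 (SERT, at chr11:76998603-77032340) takes serotonin back into neurons and platelets and is also found in mast cells and in lung endothelium. It read 8.57, 0.898 and 19.1 in M-EPCs and 192, 207 and 203 in F-EPCs. All F-EPC libraries were about an order of magnitude or more above the M-EPC libraries, which themselves varied widely. The log2 fold change of -4.82 ± 0.87 (adjusted p = 0.00313) was -3.86 without M-EPC library 2 and -5.56 without M-EPC library 3. Against OVX-EPCs, at 423, 374 and 468, it was -5.86 ± 0.86 (adjusted p = 0.00118), with -4.89 and -6.60 on leaving out the same libraries. Slc6a4 was also 1 of the 2 members listed in all 3 tables, at 199, 215 and 210.5 in F-EPCs and 430.5, 379.9 and 476 in OVX-EPCs. The F-EPC minus OVX-EPC value of -1.03 ± 0.13 (adjusted p = 8.36e-04) was -0.96 without OVX-EPC library 3, and it became 0.0939 with TMM and 0.0841 with DESeq2 scaling. The direction of this last difference thus turns with the scaling, whereas Slc6a4 remained lower in M-EPCs under both.

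Slc6a3 (DAT), the dopamine transporter, had 0 reads in M-EPCs. It read 13.1, 4.84 and 8.53 in F-EPCs and, on the scale of the other table, 8.67, 24.5 and 9.65 in OVX-EPCs. With the floor of 3 reads per M-EPC library, F-EPCs were at least 2.90-fold and OVX-EPCs at least 4.59-fold higher (adjusted p = 3.63e-04 and 3.59e-04 for the fitted differences). The first bound was 2.20-fold without F-EPC library 1, and the second was 2.94-fold without OVX-EPC library 2. Both take the mean of the female group as it stands. The mast cell and platelet markers were lower in M-EPCs in both of these comparisons, as given above, and were not listed between F-EPCs and OVX-EPCs apart from Gp9. Their part in the values of Slc6a4 and Slc6a3 was not tested.

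The organic anion transporters included Slco2b1 and Slco3a1, raised in M-EPCs over F-EPCs, and also a member with 0 reads in M-EPCs. Slco2b1 (OATP2B1, at chr7:99657804-99711340), an importer of steroid sulfates, bile acids and many drugs, read 2883, 2902 and 2785 in M-EPCs and 379.7, 355 and 375 in F-EPCs. The spread within groups was small beside the log2 fold change of 2.95 ± 0.09 (adjusted p = 1.51e-05). In the table with OVX-EPCs, F-EPCs read 394, 368 and 389.5 and OVX-EPCs 2179.8, 2107 and 2398 (-2.53 ± 0.12, adjusted p = 1.03e-04), so F-EPCs were the low group. The Slco2b1 level of F-EPCs remained below that of OVX-EPCs with TMM and DESeq2 scaling. Antisense genes Gm15635 and Gm34280 share 471 and 78 bases of its exons.

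Slco3a1 (OATP3A1, at chr7:74275419-74554780), a transporter of prostaglandins and thyroid hormone, was the other member listed in all 3 tables. It read 1363, 1300.5 and 1308 in M-EPCs and 209, 169 and 189.6 in F-EPCs (log2 fold change 2.80 ± 0.11, adjusted p = 3.56e-05). Against OVX-EPCs, at 390.1, 409 and 421, M-EPCs were higher by 1.73 ± 0.12 (adjusted p = 1.09e-04). F-EPCs were below OVX-EPCs by -1.08 ± 0.13 (adjusted p = 6.72e-04), which was -0.998 without F-EPC library 2, 0.0587 with TMM and 0.0507 with DESeq2 scaling, so that direction turns with the scaling. Slco2a1 (PGT), the prostaglandin importer of endothelium, read 14.3, 26.9 and 32.3 in M-EPCs and 5.05, 1.94 and 10.4 in F-EPCs (2.04 ± 0.58, adjusted p = 0.0162). Its adjusted p was 0.05005 without M-EPC library 2 and 0.05001 without M-EPC library 3.

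Slco4a1, Slco5a1 and the urea transporter Slc14a1 of the same class were lower in M-EPCs than in both female groups. Slco4a1, which carries thyroid hormone and prostaglandins, read 4.76, 8.08 and 2.39 in M-EPCs and 51.5, 57.1 and 67.3 in F-EPCs (-3.40 ± 0.38, adjusted p = 4.83e-04). Against OVX-EPCs, at 30.8, 32.1 and 52.1, it was -2.74 ± 0.42 (adjusted p = 0.00133). Slco5a1, whose substrates are not well known, had 0 reads in every M-EPC library. At 14.1, 15.5 and 9.48 in F-EPCs and 6.74, 5.66 and 10.6 in OVX-EPCs, it was at least 4.28-fold and at least 2.46-fold higher than the M-EPC floor. The bound against OVX-EPCs was 1.99-fold without OVX-EPC library 3. Slc14a1 (UT-B), the urea channel of red cells and of vasa recta endothelium, read 91.4, 96.1 and 75.3 in M-EPCs and 359, 331 and 381 in F-EPCs (-2.02 ± 0.13, adjusted p = 9.77e-05). It averaged 529 ± 38.9 in OVX-EPCs (-2.55 ± 0.15, adjusted p = 8.30e-05). Of 7 erythroid markers only Epor was listed, with M-EPCs above F-EPCs (1.53) and F-EPCs below OVX-EPCs (-1.95).

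**Figure D3:**
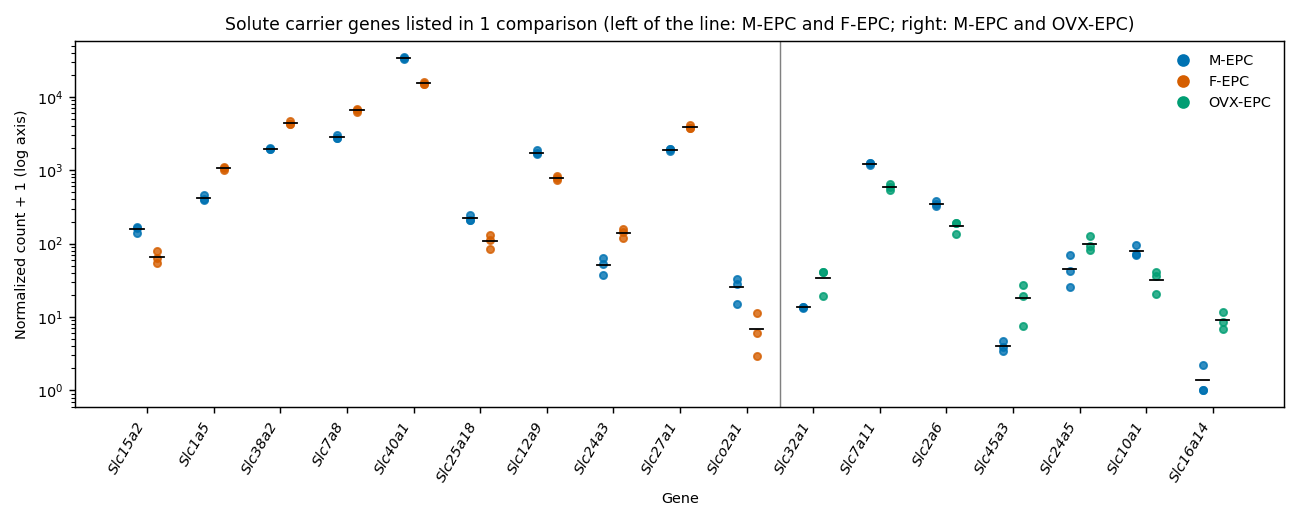
Normalized count plus 1 (y axis, log scale) of the 17 solute carrier genes listed in a single comparison, by gene on the x axis. Points are libraries, colored by EPC group, and bars are group means; 10 genes left of the vertical line compare M-EPCs with F-EPCs and 7 right of it M-EPCs with OVX-EPCs, and in each gene the groups do not overlap.

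Listing differed among the 35 genes: 17 were listed in 1 table, 16 in 2 and 2 in 3. Since a library's reads were identical wherever it appeared, the 18 genes in at least 2 tables could be placed on 1 scale of 9 libraries, on which OVX-EPC levels were tied to the others through the F-EPC libraries. In 6 genes the mean was lowest in M-EPCs, intermediate in OVX-EPCs and highest in F-EPCs (Slc1a4, Slc4a5, Slc7a1, Slc7a5, Slco4a1 and Slco5a1). This order held for 33.3% of the 18 and for 16.1% of 1288 genes in at least 2 tables. M-EPCs were lowest and OVX-EPCs highest in 5, among them Slc14a1, Slc2a3, Slc6a3 and Slc6a4, 27.8% beside 31.7% of all such genes. F-EPCs were lowest and OVX-EPCs highest in Slc1a3, Slc25a23 and Slc7a2 (16.7% beside 11.9%). In Slco2b1 and Slco3a1 F-EPCs were lowest and M-EPCs highest (11.1% beside 25.9%), and OVX-EPCs were lowest and M-EPCs highest in Slc13a3 and Slc4a11 (11.1% beside 9.86%).

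These orders and shares are on the authors' scaling. With size factors estimated anew on the 9 libraries, 16 of the 18 members kept their order under both TMM and DESeq2, and with TMM OVX-EPCs were below M-EPCs in Slc7a1. The shares of all 1288 genes moved more. The first order held for 33.3% of members beside 22.4% of genes with TMM and for 38.9% beside 22.4% with DESeq2, and the last for 11.1% beside 16.9% and 16.4%. The order of Slc14a1, Slc2a3, Slc6a3 and Slc6a4 held for 22.2% beside 23.1% and 23.99%, that of Slco2b1 and Slco3a1 for 11.1% beside 22.5% and 21.7%, and that of Slc1a3, Slc25a23 and Slc7a2 for 16.7% beside 7.76% and 8.85%, with TMM and DESeq2. When the F-EPC and OVX-EPC table was scaled alone, F-EPCs were no longer below OVX-EPCs in Slc6a4 and Slco3a1, as given above, so the places of F-EPCs and OVX-EPCs in the orders of these genes depend on the scaling. The comparisons share libraries, and neighbouring groups in these orders need not differ.

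The 16 genes listed in exactly 2 tables also have values in the comparison in which they were not listed. They are in this set because the authors' screen did not list them there, so few calls follow from the choice of genes. By limma on the 9 libraries, 0 of the 16 passed the same threshold, beside 8.28% of 169 genes chosen in this way for M-EPCs against F-EPCs, 2.88% of 312 for M-EPCs against OVX-EPCs and 1.32% of 684 for F-EPCs against OVX-EPCs. Without the fold threshold, 1 of 2, 4 of 7 and 2 of 7 members had an unadjusted p under 0.05 (background 26.6%, 32.7% and 26.8%), and as many had an adjusted p under 0.05 (background 24.3%, 31.7% and 22.1%). edgeR's quasi-likelihood test with the authors' scaling called 0, and TMM and DESeq2 scaling called 1 (Slco4a1, 1.06 and 1.05 for F-EPC minus OVX-EPC). Libraries of the groups did not overlap in 1 of 2, 5 of 7 and 3 of 7 genes (background 25.4%, 40.7% and 39.2%).

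On the authors' scaling, 7 small differences had an adjusted p under 0.05, in 2 of them with libraries that overlap, and most depended on the scaling. For M-EPC minus OVX-EPC, Slc1a4 had a log2 fold change of -0.73 (95% interval -1.12 to -0.34, adjusted p = 0.00410), Slc7a5 -0.50 (-0.78 to -0.22, adjusted p = 0.00546) and Slc7a1 -0.29 (-0.54 to -0.0389, adjusted p = 0.0355). Slco2b1 was 0.41 higher in M-EPCs than in OVX-EPCs (0.18 to 0.65, adjusted p = 0.00593), at 2883, 2902 and 2785 beside 2102, 2032 and 2313 on the common scale. For F-EPC minus OVX-EPC, Slc14a1 was at -0.54 (-0.85 to -0.23, adjusted p = 0.00958) and Slco5a1 at 0.73 (0.17 to 1.30, adjusted p = 0.0323) with overlapping libraries. For M-EPC minus F-EPC, Slc7a2 was at 0.70 (0.18 to 1.22, adjusted p = 0.0178), again with overlap. With other scaling, Slco2b1 (0.77 with TMM and 0.67 with DESeq2) and Slc7a2 (0.63 and 0.55) still had an adjusted p under 0.05. Slc7a1 turned to 0.0758 with TMM and was -0.0282 with DESeq2 (adjusted p = 0.344 and 0.738). Slc7a5 shrank to -0.14 and -0.24 (adjusted p = 0.248 and 0.0458) and Slc1a4 to -0.41 and -0.52 (0.122 and 0.0518). Slc14a1 shrank to -0.11 and -0.14 (0.499 and 0.389). Slco5a1, with few reads, had a larger difference with both, 1.20 and 1.20, but the adjusted p was 0.106 and 0.196.

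For the other 9 genes the difference in that comparison did not pass. Slc13a3 in M-EPCs and F-EPCs, at 448, 465 and 432 beside 371, 390.3 and 317, differed by 0.32 (-0.00526 to 0.65, adjusted p = 0.0586). Slc2a3 in F-EPCs and OVX-EPCs differed by -0.71 (-1.44 to 0.0163, adjusted p = 0.0886). Slc4a11 differed by 0.24 between F-EPCs and OVX-EPCs, with an interval of -0.68 to 1.16 that still includes a difference of 2-fold, and it was -0.07 without F-EPC library 3 and -0.11 without OVX-EPC library 1. For Slc1a3 in M-EPCs and OVX-EPCs the interval was -2.06 to 0.87.

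**Figure D4:**
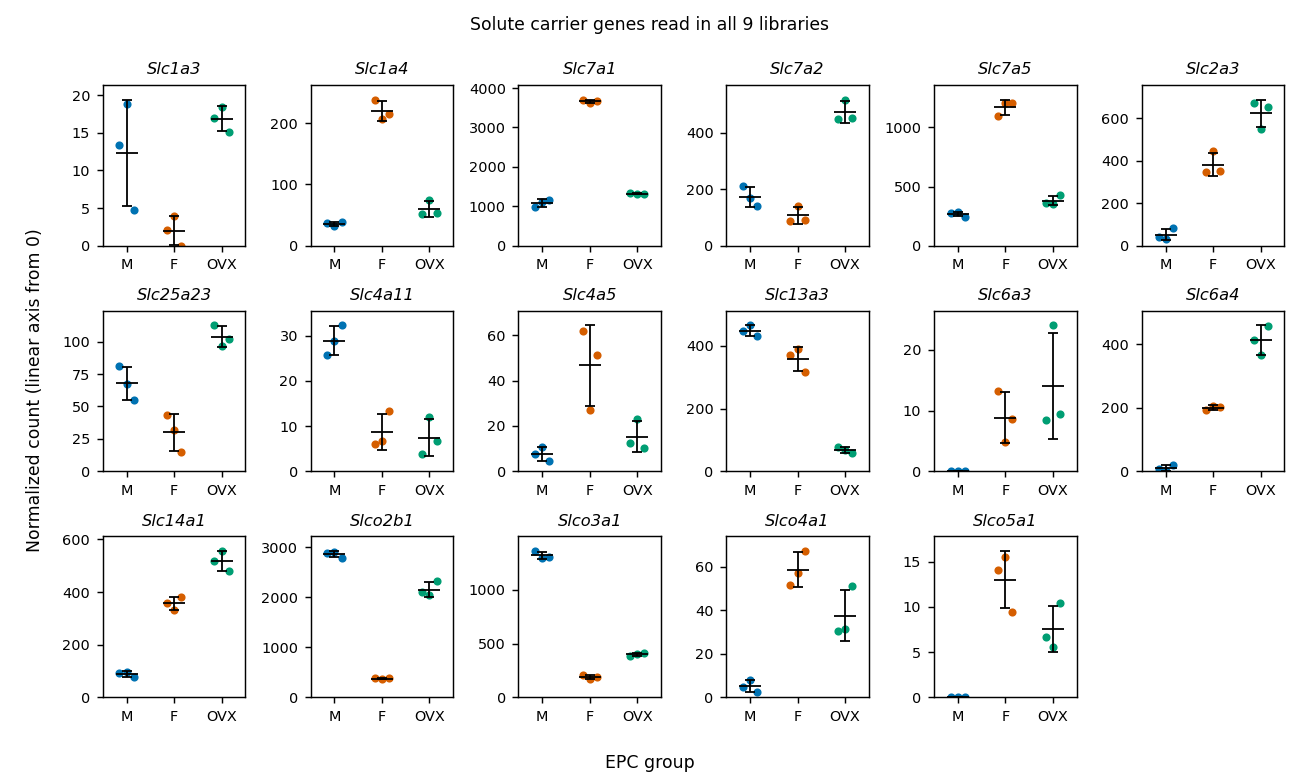
Normalized counts (y axis, linear from 0, one scale per gene) on the common 9-library scale of 17 of the 18 solute carrier genes listed in at least 2 comparisons, by EPC group (x axis). Points are libraries and bars are the mean ± SD of 3; on the authors' scaling, M-EPCs are lowest in 10 genes, F-EPCs in 5 and OVX-EPCs in 2, and with TMM size factors on the 9 libraries in 9, 5 and 3. The F-EPC and OVX-EPC places of Slco3a1 and Slc6a4 turn when their table is scaled alone.

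Of 37 ABC transporters and related carriers, 3, 2 and 1 were listed in the 3 comparisons, with Mfsd6 (-1.73) and Abca8b (2.46 and 1.44) the most changed. From 38 genes of the lysosome and its proton pump, 4 were listed for M-EPCs against F-EPCs and 2 for M-EPCs against OVX-EPCs, all lower in M-EPCs. For F-EPCs against OVX-EPCs the number was 0. The pump subunit Atp6v0a1 (-1.09 and -1.07) and the protease Ctsl (-1.51 and -1.01), named after its values were seen, were in both. Lamp3 had 0 reads in M-EPCs and 4, 1 and 10 in F-EPC libraries, so the size of its difference is not given.

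Reads on listed genes numbered 1602317 to 2070442 per library in the M-EPC and F-EPC table, 707791 to 923145 in the M-EPC and OVX-EPC table and 454298 to 468833 in the F-EPC and OVX-EPC table. M-EPC library 3 had the fewest reads in both of its tables, and a count of 0 there allows up to 3.59 normalized counts, beside 2.69 to 3.03 in the other libraries of the first table. Exons of 8 members overlap those of another annotated gene, 7 on the opposite strand and 1 (Slc45a3) on the same strand. The library kit keeps strand, but whether strand was used in counting is not given in the sources used here.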

How the data were processed

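RNA of the 9 EPC libraries (3 M-EPC, 3 F-EPC and 3 OVX-EPC) was sequenced by the authors from directional libraries. Per the labels and the submitters' processing notes, reads were aligned to mm10 with HISAT2 and handled with Cufflinks, Cuffnorm and DESeq, versions not given in the sources used here. The deposited values are a normalized signal per gene and library, that is, read counts divided by 1 size factor per library and table. Those factors were recovered, and all values were then whole reads within 0.01. The deposited tables also hold the authors' own log2 fold changes and p-values, which were not used. No sample column was left unassigned.

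Samples were grouped by title. Log2 of normalized count plus 1 was compared between groups in each table with limma 3.58.1 in R 4.3.3, two-sided, over all genes listed, with Benjamini-Hochberg adjustment. Calls needed an adjusted p under 0.05 together with a log2 fold change of 1 or more in either direction. Fold changes on this scale understate those of low genes. For genes in at least 2 tables, 1 set of size factors was built over the 9 libraries, with OVX-EPC factors set through F-EPCs. Setting them through M-EPCs changed them by a ratio of 1.00. On simulated counts for the same genes, with 200 changed 4-fold, 199, 200 and 200 were recovered in the M-EPC and F-EPC, M-EPC and OVX-EPC, and F-EPC and OVX-EPC tables, with 4, 6 and 2 false calls. The changed genes were drawn above a minimum mean, as many up as down, with a fixed small dispersion and most genes unchanged. The real lists are nearly all changed and hold members with few reads, so this recovery does not cover such conditions.

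Substrate classes were assigned by solute carrier family, by hand. All members are counted, and the values of 1 are not reported here. Genes that are not members were named where they had the largest absolute change of their list in a table or were cell type markers, with exceptions marked, and fold changes were ranked at a pseudocount of 1. Intervals of log2 fold changes used limma's t quantiles. Members and lists were chosen with earlier results of these data known. Positions and exon lengths came from GENCODE M21 (GRCm38). RefSeq promoter windows, 250 bases before to 50 after the start, matched 25 of the 35 members. Alternatives were edgeR 4.0.16 on the recovered reads with the authors' size factors or TMM, DESeq2 1.42.0, a pseudocount of 0.1, a mean of at least 10, leaving out each library and a replicate block. TMM and DESeq2 factors for the 9-library orders, and DESeq2 on the 9 libraries, were chosen after seeing the data. The intervals and the floor of 3 reads per library cover counting error only where they come from reads, and limma intervals cover the spread between libraries.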

Additional observations from a re-analysis of the deposited data

How the results depend on the processing

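Counts of members called were the same, within 1.5 times, with edgeR on the recovered reads at the authors' scaling, a pseudocount of 0.1 and a filter at a mean of 10. Other scaling moved some. For M-EPCs against F-EPCs, DESeq2 called 5 members higher instead of 10. Between F-EPCs and OVX-EPCs it called 7 members instead of 11, with 2 instead of 6 lower in F-EPCs, and TMM called 3 lower. TMM and DESeq2 also called 1 gene (Slco4a1) in the comparisons without a listing, instead of 0. There Slc7a1 (M-EPC minus OVX-EPC) turned to 0.0758 with TMM. The F-EPC minus OVX-EPC log2 fold changes of Slc6a4 (0.0939 with TMM, 0.0841 with DESeq2) and Slco3a1 (0.0587 and 0.0507) changed sign. These scalings moved the median of all listed genes in that comparison by 1.14 and 1.13, and no cause specific to these genes was tested. Leaving out 1 library at a time gave 21 to 25 members called between M-EPCs and F-EPCs (7 to 9 higher, 14 to 16 lower in M-EPCs), 16 to 18 between M-EPCs and OVX-EPCs (5 to 6 and 11 to 12), 10 to 11 between F-EPCs and OVX-EPCs (5 higher, 5 to 6 lower in F-EPCs) and 0 in the comparisons without a listing. Over all listed members and omissions, 304 values kept their call and 26 lost it, and none of these changed sign. In the comparisons without a listing, 141 values kept their direction and call and 3 changed sign, among them Slc4a11, which ranged from -0.11 to 0.61.

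Replicate numbers did not pair the libraries: the deviations of same-numbered libraries correlated at -0.02 to 0.03. With the replicate number as a block, the counts stayed at 26, 18 and 11, and no call of a member changed. Genes with 0 or few reads in a group are limited by depth, and the size and rank of their fitted fold changes depend on the pseudocount and tool. Among the members these include Slc16a14, Slc6a3, Slco5a1, Slc1a3 and Slc45a3, and outside the members Lamp3, Tfr2, Trpc6, Olr1 and Mcpt8. No gene outside the authors' lists could be tested.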
